A study of Mus musculus with 7 samples.

Results

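The genes described are 9 glutamate receptor genes of the mouse, the metabotropic receptors Grm2, Grm3, Grm5, Grm7 and Grm8 and the kainate receptor subunits Grik2, Grik3, Grik4 and Grik5. They were taken by symbol from the 25467 genes of the count table, and all 9 were found and passed the low-count filter that left 17211 genes. RNA from the mPFC (medial prefrontal cortex), a midline region of the frontal lobe, was sequenced from 7 mice. The labels give 4 libraries to rhTSP1, recombinant human thrombospondin-1 (written TSP1 here), and 3 to PBS, phosphate-buffered saline. All were made from 1.3 µg of total RNA, and no genotype, strain, sex, age, dose, route or time is given in the sources used here. Thrombospondin-1 is a matrix protein secreted by astrocytes and known to induce excitatory synapses, and the comparison asks what it does to transcripts of the mPFC.

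Glutamate acts at fast ion channels and, through metabotropic receptors, at G proteins. Grm5 belongs to group I, which couples to Gq and phospholipase C and sits around the postsynaptic density, whereas Grm2 and Grm3 (group II) and Grm7 and Grm8 (group III) couple to Gi/o, lower cyclic AMP and restrain transmitter release, Grm7 at the active zone itself. Grm3 and Grm5 are also known as receptors of astrocytes. Kainate receptors are tetrameric cation channels. Their subunits Grik2 and Grik3 (GluK2 and GluK3) can form channels by themselves, while the high-affinity subunits Grik4 and Grik5 (GluK4 and GluK5) need a partner of the first kind to reach the surface.

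All 5 metabotropic genes had fitted values above 0 with TSP1, and so did Grik2 and Grik3, while the high-affinity subunits Grik4 and Grik5 had fitted values below 0. PBS replicate 1 was the lowest library for Grm2, Grm3, Grm7 and Grm8. Without it their log2 fold changes were 0.21, 0.08, 0.09 and 0.12, and that of Grm5 was 0.20. TSP1 replicate 1 was the highest library for Grm2, Grm5, Grm7 and Grik2. With that library left out instead, their log2 fold changes were 0.27, 0.17, 0.09 and 0.19. None of the 9 passed the adjustment over all genes (edgeR quasi-likelihood test, Benjamini-Hochberg FDR under 0.05), and none of the 17211 genes did (0% called). The differences were small, from a log2 fold change (TSP1 minus PBS) of -0.20 for Grik4 to 0.33 for Grm2, with a median of 0.16 over the 9 genes and 0.00 over all genes tested. Of all tested genes 51.1% had fitted values above 0, against 7 of the 9 receptor genes. At an unadjusted p under 0.05 there were 3 of the 9, Grm5, Grik2 and Grm8, all higher with TSP1, where 9.65% of all genes were called, 4.21% higher and 5.44% lower. DESeq2 called 87 genes (0.541%) at an adjusted p under 0.05 and limma-voom 0, and none of the 9 was among them. Over the alternatives the number of the 9 at an unadjusted p under 0.05 ran from 2 to 5. It was 5 without TSP1 replicate 4 (9.74% of all genes in that fit) and in limma-voom (9.64%), and 2 when TSP1 replicate 3 (8.64%) was left out, or in place of it PBS replicate 1 (8.55%) or PBS replicate 3 (6.71%), with the 5 CPM filter (10.8%) and with the trend over exon length and GC removed (8.57%).

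The libraries held between 15090336 and 20755167 counts, with no difference between groups beyond the spread (exact permutation test of totals, two-sided, p = 0.6). TSP1 replicate 4 stood apart in cell markers. The summed level of 10 striatal projection neuron markers was 619.5 CPM (depth-scaled counts, with edgeR's TMM factors) there and 234.4 to 263.6 CPM in the other 6 libraries, and the sum of 9 myelin markers was 8711 CPM against 3171 to 6041 CPM. None of these markers was at 0 in any library, and excitatory neuron markers (4855 CPM in TSP1 replicate 4, 6217 to 7118 CPM elsewhere) and interneuron markers were present in all. In bulk tissue, fewer cells of a type and less RNA per cell cannot be told apart. Summed microglia markers were 389.9 to 491.6 CPM with TSP1 and 495.4 to 559.9 CPM with PBS, and endothelial markers 243.2 to 311.1 against 321.6 to 364.3 CPM. All 8 microglia and all 7 endothelial markers had fitted values below 0, 4 of each at an unadjusted p under 0.05 in edgeR. All 7 oligodendrocyte precursor markers were below 0 as well, 3 of them at that p, and 4 of 8 interneuron and 4 of 10 astrocyte markers were lower at that p. Of all tested genes 5.44% were lower at that p. All 10 striatal, all 6 deep layer and 5 of 7 pan-neuronal markers had fitted values above 0. Below 0 were 6 of 7 excitatory neuron, 4 of 5 upper layer and 8 of 9 myelin markers. The part of these cell types in the receptor values was not tested.

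Per kilobase of exon the 9 genes ranged over more than an order of magnitude (RPKM, TMM-scaled CPM divided by the annotated exon length in kilobases). Grik5 was the highest, at 56.7 ± 4.30 RPKM (SD over all 7 libraries), and no other member reached its range of 50.9 to 63.3 RPKM. Grm3 came next with 28.2 ± 3.05 RPKM. Grm5 and Grik3 shared the third rank, at 18.6 ± 1.41 and 18.5 ± 2.02 RPKM, and their ranges over libraries overlapped. Grm2 (12.3 ± 2.37 RPKM) and Grm7 (10.1 ± 1.25 RPKM) also overlapped. Grik4 had 5.54 ± 0.682 RPKM and Grik2 4.45 ± 0.420 RPKM, and their ranges met between 4.57 and 4.95 RPKM. Grm8 was lowest, at 1.96 ± 0.246 RPKM. The annotated exons of Grik2 (13246 bases), Grm5 (10247) and Grm8 (9898) are long and those of Grm3 (3049) short, so a level per length depends on which of these exons the cells use.

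**Figure D1:**
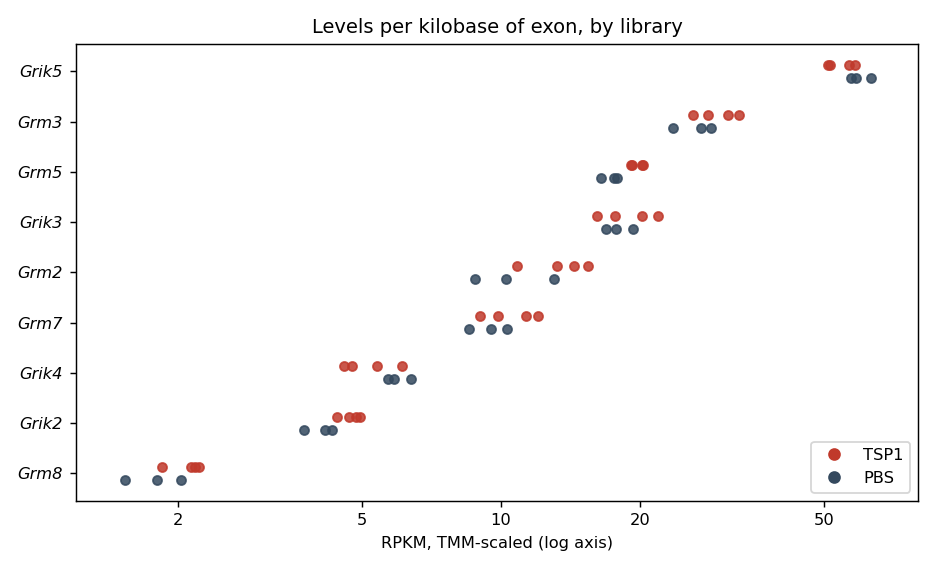
Level of each receptor gene per kilobase of exon (RPKM, log axis) in each of the 7 libraries, with 4 TSP1 libraries in red and 3 PBS libraries in grey. Grik5 lies above all others at 50.9 to 63.3 RPKM and Grm8 below all others at 1.54 to 2.22 RPKM.

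Grm5, the group I receptor, had the smallest p of the 9 genes. It lies on chromosome 7 from 87584168 to 88134907 (GRCm38, plus strand, ENSMUSG00000049583.15, protein-coding). Its levels were 207, 196, 206 and 195 CPM in TSP1 replicates 1 to 4 and 179.7, 169 and 183 CPM in PBS replicates 1 to 3. Every TSP1 library lay above every PBS library. The fitted log2 fold change was 0.19 (SE 0.06, 95% interval 0.06 to 0.32, edgeR adjusted p = 0.342), that is 1.14-fold, with an unadjusted p = 0.00817 in edgeR. The value was 0.20 without TSP1 replicate 4. With each library's trend over exon length and GC content removed it was 0.12, with an unadjusted p = 0.0531 in edgeR.

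The group II receptors differed in spread. Grm2, a presynaptic autoreceptor on chromosome 9 from 106643095 to 106656082 (minus strand, ENSMUSG00000023192.12), had 75.3, 64.6, 70.3 and 53.1 CPM with TSP1 and 43.1, 63.7 and 50.1 CPM with PBS. Its groups overlapped, since TSP1 replicate 4 lay below PBS replicate 2. Its log2 fold change of 0.33 (SE 0.15, 95% interval -0.02 to 0.69, edgeR adjusted p = 0.546) was the largest of the 9 in size and also had the largest SE. Leaving out PBS replicate 2 gave 0.51, PBS replicate 1 gave 0.21 and TSP1 replicate 4 gave 0.43. Gm28111, an annotated antisense gene that shares 470 exon bases with Grm2, had 0 to 3 counts per library against 820 to 1282 for Grm2. Grm3, whose product is also carried by astrocytes, lies on chromosome 5 from 9485541 to 9725170 (minus strand, ENSMUSG00000003974.6). It had 94.7, 85.5, 99.9 and 79.4 CPM with TSP1 and 72.0, 82.7 and 86.9 CPM with PBS, and the groups overlapped. The log2 fold change was 0.16 (SE 0.09, 95% interval -0.03 to 0.35, edgeR adjusted p = 0.602), and 0.08 without PBS replicate 1. Of 10 astrocyte markers, 9 had fitted values below 0 (median log2 fold change -0.21), and their summed level was 5430 to 6697 CPM with TSP1 and 6277 to 7303 CPM with PBS. Grm3 and Grm5 had fitted values of the other sign than most astrocyte markers, and the part of astrocytes in these values was not tested.

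Among the group III receptors, Grm7, the receptor of the presynaptic active zone, spans 921.6 kilobases of chromosome 6 from 110645581 to 111567230 (plus strand, ENSMUSG00000056755.13). Its levels were 70.6, 57.8, 66.7 and 53.0 CPM with TSP1 and 50.1, 60.6 and 56.0 CPM with PBS, so TSP1 replicates 2 and 4 lay within the PBS range. The log2 fold change was 0.16 (SE 0.10, 95% interval -0.06 to 0.37, edgeR adjusted p = 0.66), 0.23 without TSP1 replicate 4 and 0.09 both without TSP1 replicate 1 and without PBS replicate 1. The antisense gene Gm20387, which shares 130 exon bases with Grm7, had 27 to 62 counts per library against 916 to 1215. Grm8, a high-affinity presynaptic receptor, lies on the same chromosome from 27275119 to 28135178 (minus strand, ENSMUSG00000024211.15). It had 21.5, 18.3, 21.1 and 22.0 CPM with TSP1 and 15.2, 20.1 and 17.8 CPM with PBS. Only TSP1 replicate 2 fell within the PBS range. The log2 fold change was 0.23 (SE 0.11, 95% interval 0.00 to 0.46, edgeR adjusted p = 0.515), with an unadjusted p = 0.0492 in edgeR, and it was 0.12 without PBS replicate 1. With the length and GC trend removed it was 0.16, with an unadjusted p = 0.123 in edgeR. Grm8 rested on the fewest reads of the 9, 292 to 403 counts per library.

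**Figure D2:**
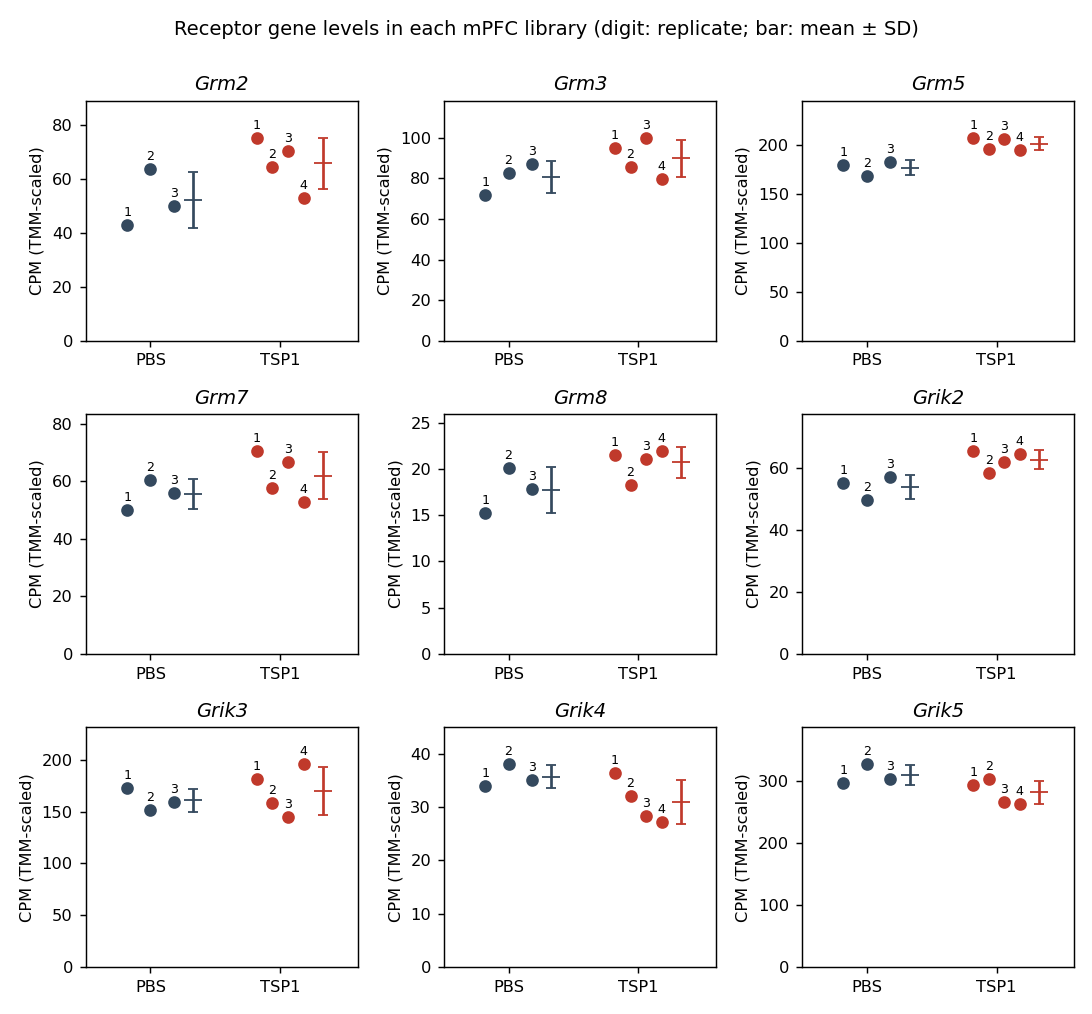
TMM-scaled CPM of the 9 receptor genes in each library (points, the digit is the replicate number), with mean ± SD beside each group (4 TSP1, 3 PBS libraries) and axes from 0. The groups stand apart for Grm5 and Grik2 and overlap for the other 7 genes.

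The kainate subunits went both ways. Grik2, which encodes a subunit able to form channels alone, lies on chromosome 10 from 49094833 to 49788766 (minus strand, ENSMUSG00000056073.15). Its levels were 65.5, 58.5, 62.0 and 64.3 CPM with TSP1 and 55.1, 49.7 and 57.0 CPM with PBS. The groups did not overlap, as with Grm5, so 2 of the 9 genes had all TSP1 libraries above all PBS libraries, and 4.83% of all tested genes did, while 0 of the 9 had all TSP1 libraries below, against 5.26% of all genes. A log2 fold change of 0.21 was fitted (SE 0.07, 95% interval 0.06 to 0.36, edgeR adjusted p = 0.349), with an unadjusted p = 0.00861 in edgeR. Removing the trend with length and GC left 0.13, with an unadjusted p = 0.0718 in edgeR.

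Grik3, the related subunit of low glutamate affinity, lies on chromosome 4 from 125490700 to 125714173 (plus strand, ENSMUSG00000001985.9). It had 181, 159, 144 and 196 CPM with TSP1 and 173, 151 and 159 CPM with PBS. The TSP1 libraries held both the lowest and the highest value, the highest in replicate 4, the library with the high striatal and myelin markers. The log2 fold change was 0.08 (SE 0.10, 95% interval -0.13 to 0.28, edgeR adjusted p = 0.846) and 0.005 without that library.

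Grik4, a high-affinity subunit on chromosome 9 from 42518135 to 42944493 (minus strand, ENSMUSG00000032017.14), had 36.5, 32.1, 28.4 and 27.2 CPM with TSP1 and 34.0, 38.1 and 35.03 CPM with PBS. Of the 4 TSP1 libraries only replicate 1 was inside the PBS range, and the others lay below it. Grik4 had a log2 fold change of -0.20 (SE 0.10, 95% interval -0.41 to 0.00, edgeR adjusted p = 0.53), and its size ran from -0.29 without TSP1 replicate 1 to -0.14 without TSP1 replicate 4. Grik5, the other high-affinity subunit and the member with the most reads per kilobase, lies on chromosome 7 from 25009849 to 25072346 (minus strand, ENSMUSG00000003378.9). It had 293, 302, 266 and 263 CPM with TSP1 and 296, 327 and 304 CPM with PBS. TSP1 replicate 2 was above the lowest PBS library and the other 3 were below it. Grik5 had a log2 fold change of -0.14 (SE 0.07, 95% interval -0.28 to 0.01, edgeR adjusted p = 0.567), -0.08 with the length and GC trend removed and -0.09 without PBS replicate 2. For Grik4 and Grik5, TSP1 replicate 4 was the lowest and PBS replicate 2 the highest of all 7 libraries.

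Within a library, RNA levels of the kainate subunits were set against each other as ratios per kilobase of annotated exon. These ratios were chosen after the values were seen and carry no test. Grik2 and Grik5 differ in exon length (13246 and 5168 bases) and GC content (37.9% and 61.7%), and no such trend was removed from the ratios. With the trend removed, the log2 fold changes of Grik2, Grik5 and Grik4 were 0.13, -0.08 and -0.21. Grik5 was 11.5, 13.2, 11.0 and 10.5 times Grik2 in TSP1 replicates 1 to 4 and 13.8, 16.9 and 13.7 times Grik2 in the PBS libraries, which did not overlap. Grik4 was 1.24, 1.22, 1.02 and 0.941 times Grik2 with TSP1 and 1.37, 1.71 and 1.37 times with PBS, also without overlap. The ratio of Grik5 to Grik3 overlapped between groups. It was 2.80, 3.31, 3.20 and 2.33 with TSP1 and 2.97, 3.75 and 3.32 with PBS. The ratio of Grik4 to Grik3 overlapped too, at 0.303, 0.304, 0.296 and 0.209 with TSP1 and 0.295, 0.379 and 0.332 with PBS. Grik2 itself did not overlap between groups, as given above. Grik4 and Grik5 together made up 65.4% to 72.6% of the RPKM summed over all 5 kainate subunits, Grik1 included, with TSP1 and 70.8% to 75.2% with PBS.

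**Figure D3:**
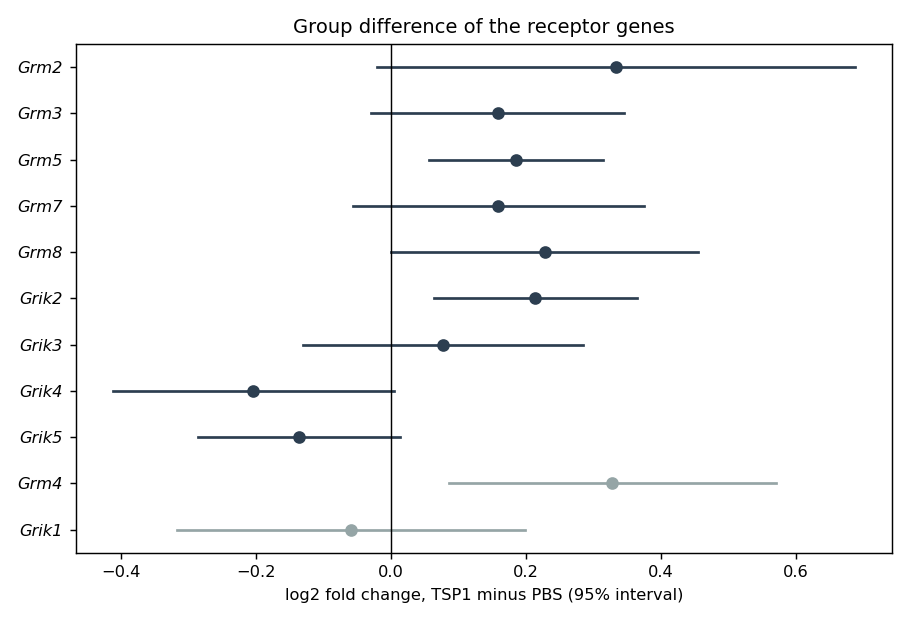
Log2 fold change (TSP1 minus PBS) of the 9 receptor genes (dark) and of 2 further receptor genes, Grm4 and Grik1, (pale), from the quasi-likelihood fit over 7 libraries. Points are the fitted values and lines their 95% intervals, not adjusted for the number of genes. The intervals of Grm5, Grik2 and Grm4 lie clear of 0, and that of Grm8 begins at 0.00.

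GC content differed widely over the members. The longest annotated transcript was 37.9% GC for Grik2, 41.9% for Grm8 and 42.5% for Grm5, the 3 genes at an unadjusted p under 0.05. It was 61.7% for Grik5, 52.2% for Grik4, 47.6% for Grm3 and 47.2% for Grm7. Grm2, with 56.9% GC, had the largest positive value, and Grik3, with 54.2%, was also above 0. With the trend removed, the values of Grm2 and Grik4 were 0.36 and -0.21, while those of Grm5, Grik2, Grm8 and Grik5 moved toward 0 as given above. Grm7 at 0.133 and Grik3 at 0.055 were also nearer 0, and Grm3 was at 0.165 against 0.159 before. After this correction none of Grm5, Grik2 and Grm8 was at an unadjusted p under 0.05, and the 2 of the 9 genes that were, Grm2 and Grik4, had not been before. The signs of all 9 were kept.

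The start regions of 4 of these genes are shown, chosen by their fitted values, none of which passed the FDR. They are Grm2 with the largest value, and Grik2, Grik4 and Grik5 as kainate subunits of opposite sign. RefSeq windows (GRCm38.p6) that begin 250 bases before a transcript start and end 50 bases after it were found for 8 of the 9 genes. All 4 windows are on the minus strand and are written 5′ to 3′ on that strand, Grm2 at chr9:106656060-106656359, Grik2 at chr10:49788705-49789004, Grik4 at chr9:42944322-42944621 and Grik5 at chr7:25072320-25072619. Capitals mark GC boxes, the motif GGGCGG or its reverse complement CCGCCC.
Grm2: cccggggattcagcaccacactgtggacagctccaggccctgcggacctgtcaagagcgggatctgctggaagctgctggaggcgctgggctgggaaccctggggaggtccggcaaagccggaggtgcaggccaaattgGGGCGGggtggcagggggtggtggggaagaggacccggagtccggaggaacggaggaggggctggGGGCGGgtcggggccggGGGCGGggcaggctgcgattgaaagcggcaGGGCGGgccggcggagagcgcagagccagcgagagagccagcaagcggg
Grik2: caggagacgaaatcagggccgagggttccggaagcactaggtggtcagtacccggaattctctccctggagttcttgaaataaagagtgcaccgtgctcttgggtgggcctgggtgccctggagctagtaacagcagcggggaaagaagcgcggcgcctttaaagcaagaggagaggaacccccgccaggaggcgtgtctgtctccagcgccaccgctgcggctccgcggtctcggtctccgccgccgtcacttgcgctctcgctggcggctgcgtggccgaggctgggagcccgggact
Grik4: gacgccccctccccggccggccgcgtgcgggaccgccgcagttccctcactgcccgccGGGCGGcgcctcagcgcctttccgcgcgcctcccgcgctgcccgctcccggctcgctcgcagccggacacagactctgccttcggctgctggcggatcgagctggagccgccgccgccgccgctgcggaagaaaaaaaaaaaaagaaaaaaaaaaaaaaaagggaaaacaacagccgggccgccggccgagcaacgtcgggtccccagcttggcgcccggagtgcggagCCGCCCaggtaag
Grik5: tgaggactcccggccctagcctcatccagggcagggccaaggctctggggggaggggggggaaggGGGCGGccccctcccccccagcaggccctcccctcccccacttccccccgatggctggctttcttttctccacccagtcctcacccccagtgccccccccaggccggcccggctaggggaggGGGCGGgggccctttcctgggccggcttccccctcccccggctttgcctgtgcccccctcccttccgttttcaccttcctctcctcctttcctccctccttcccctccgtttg
The Grm2 window held 4 GC boxes, those of Grik4 and Grik5 held 2 each and that of Grik2 held 0. Over all 32851 windows 35.7% held at least 1. The E-box CACGTG (7.15% of windows) and the cyclic AMP response element TGACGTCA (1.79%) were searched on both strands, do not overlap the GC box and occurred in none of the members' windows. The GC content of the 4 windows was 72.0%, 64.7%, 70.0% and 72.0%, against a median of 52.7% over all windows. Of the members not printed, Grik3 had the window richest in GC, at 82.0% with 7 GC boxes, and the first windows of Grm3, Grm7 and Grm8 held 2, 1 and 1. GC boxes were thus found both in genes with fitted values above 0 and in those below 0.

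Further receptors were measured beside the members. Grm4, a group III receptor, had 26.9, 26.9, 25.5 and 36.0 CPM with TSP1 and 21.8, 24.2 and 22.9 CPM with PBS. This was 0.33 on the log2 scale (SE 0.11, edgeR adjusted p = 0.374). Its groups did not overlap, its highest value was in TSP1 replicate 4, and without that library the value was 0.21 (edgeR adjusted p = 0.455). Grik1, the remaining subunit able to form channels alone, averaged 16.1 ± 2.72 CPM in the TSP1 and 16.7 ± 0.669 CPM in the PBS libraries (mean ± SD), with a log2 fold change of -0.06 (SE 0.12), which turned to 0.03 without TSP1 replicate 2. Grm6 was not analysed here.

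**Figure D4:**
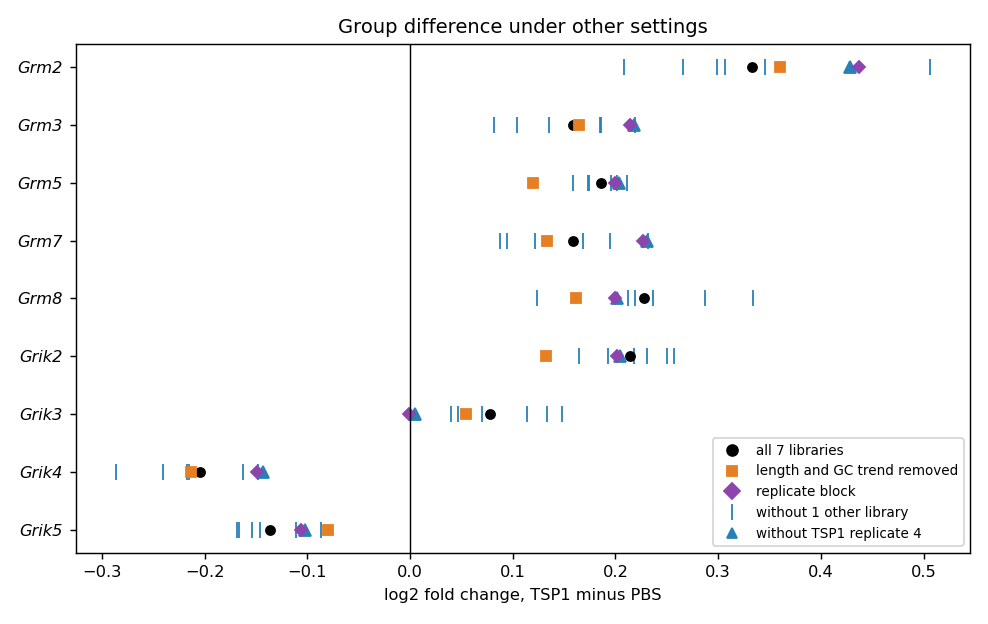
Log2 fold change (TSP1 minus PBS) of each receptor gene with all 7 libraries, with single libraries left out, with the trend over exon length and GC removed and with the replicate number as a block. Values keep their sign except that of Grik3, which is 0.08 with all libraries and -0.001 with the block. TSP1 replicate 4 has no PBS library of the same number, so with the block it adds nothing to the group difference.

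Genes that act with these receptors showed no common direction. Of 46 tested partner and signalling genes in 5 lists, 22 had fitted values above 0 and 24 below, with a median log2 fold change of 0.00. None passed the edgeR adjustment over all genes, and 4 were higher and 3 lower at an unadjusted p under 0.05, a threshold that 4.21% of all genes passed as higher and 5.44% as lower. All TSP1 libraries lay above all PBS libraries for 3 of the 46 and below for 2, against 4.83% and 5.26% of all tested genes.

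Of 7 tested kainate receptor partners, 6 had fitted values above 0, as did 51.1% of all tested genes, and the median log2 fold change was 0.08. Only Klhl24 was at an unadjusted p under 0.05 in edgeR, where 4.21% of all tested genes were higher. Neto1, an auxiliary subunit that slows kainate channel closing, averaged 69.2 ± 5.63 CPM in the 4 TSP1 and 62.8 ± 4.67 CPM in the 3 PBS libraries (mean ± SD). The difference was 0.14 on the log2 scale (SE 0.08, edgeR adjusted p = 0.595) and the groups overlapped. Klhl24, whose product binds kainate subunits, averaged 80.03 ± 1.21 and 73.1 ± 3.77 CPM with no overlap between groups, a difference of 0.13 on the log2 scale (SE 0.06, edgeR adjusted p = 0.514). With the length and GC trend removed, Neto1 was at 0.086 and Klhl24 at 0.065, and Neto1 was at 0.095 without PBS replicate 1.

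In the list of group I scaffold and signalling genes, 6 of 15 lay above 0 and 9 below. Homer1, the scaffold that ties Grm5 to the postsynaptic density, had 186, 204, 194 and 190.2 CPM with TSP1 and 187, 236 and 222 CPM with PBS. Its log2 fold change was -0.15 (SE 0.08, edgeR adjusted p = 0.56), the other sign than that of Grm5, and the groups overlapped. It was -0.07 without PBS replicate 2 and -0.245 without PBS replicate 1. Plcb1, the phospholipase C downstream of Gq, averaged 217 ± 7.11 and 191 ± 26.8 CPM, 0.18 apart on the log2 scale (SE 0.08, edgeR adjusted p = 0.511). PBS replicate 1 alone was low, at 160.3 CPM, and without it the difference was 0.07. With the length and GC trend removed it was 0.12. Ncdn, which encodes the Grm5 binding protein neurochondrin (norbin) and was the most abundant gene of the list, differed by 0.00 on the log2 scale (SE 0.07).

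In the list of group II and III signalling genes, 7 of 14 lay above 0 and 7 below. Gnai2, a Gi alpha subunit, had 164, 184, 182 and 177 CPM with TSP1 and 202, 203 and 191 CPM with PBS, without overlap (log2 fold change -0.17, SE 0.06, edgeR adjusted p = 0.425). It is also abundant in microglia and endothelial cells, whose summed markers lay lower in the TSP1 libraries, and their part in this value was not tested. Adcy3, an adenylyl cyclase, averaged 52.7 ± 2.51 and 47.4 ± 1.71 CPM without overlap, 0.15 apart on the log2 scale (SE 0.07, edgeR adjusted p = 0.485). Cenpo, a gene on the other strand, shares 1380 exon bases with Adcy3, and the sources used here do not say whether counting used strand. Adcy1, the most abundant cyclase of the list, had 1269 ± 143 and 1271 ± 215 CPM.

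Among the enzymes that make and cleave NAAG, the peptide that activates Grm3, Folh1 differed most. Folh1, the peptidase that breaks NAAG down, had 6.13, 6.56, 6.04 and 6.54 CPM with TSP1 and 9.94, 6.80 and 9.11 CPM with PBS. The groups did not overlap, but PBS replicate 2 came close to the TSP1 libraries. On the log2 scale the difference was -0.45 (SE 0.15, edgeR adjusted p = 0.353), and it ranged from -0.59 to -0.33 when single libraries were left out. The NAAG synthases Rimkla and Rimklb differed by 0.15 (SE 0.14) and -0.02 (SE 0.07) on the log2 scale. For Rimkla, leaving out TSP1 replicate 4 gave 0.04, PBS replicate 2 gave 0.06 and PBS replicate 1 gave 0.27.

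Of 6 receptor kinases and arrestins, 4 had fitted values below 0. Grk2, a kinase that phosphorylates active receptors, averaged 293 ± 28.3 and 337 ± 32.6 CPM, -0.20 on the log2 scale (SE 0.09, edgeR adjusted p = 0.479). Arrb1, the arrestin that binds such receptors, averaged 460.4 ± 32.4 and 493 ± 28.2 CPM, -0.10 on the log2 scale (SE 0.07, edgeR adjusted p = 0.705), and leaving out TSP1 replicate 4 gave -0.05. The groups overlapped for both.

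**Figure D5:**
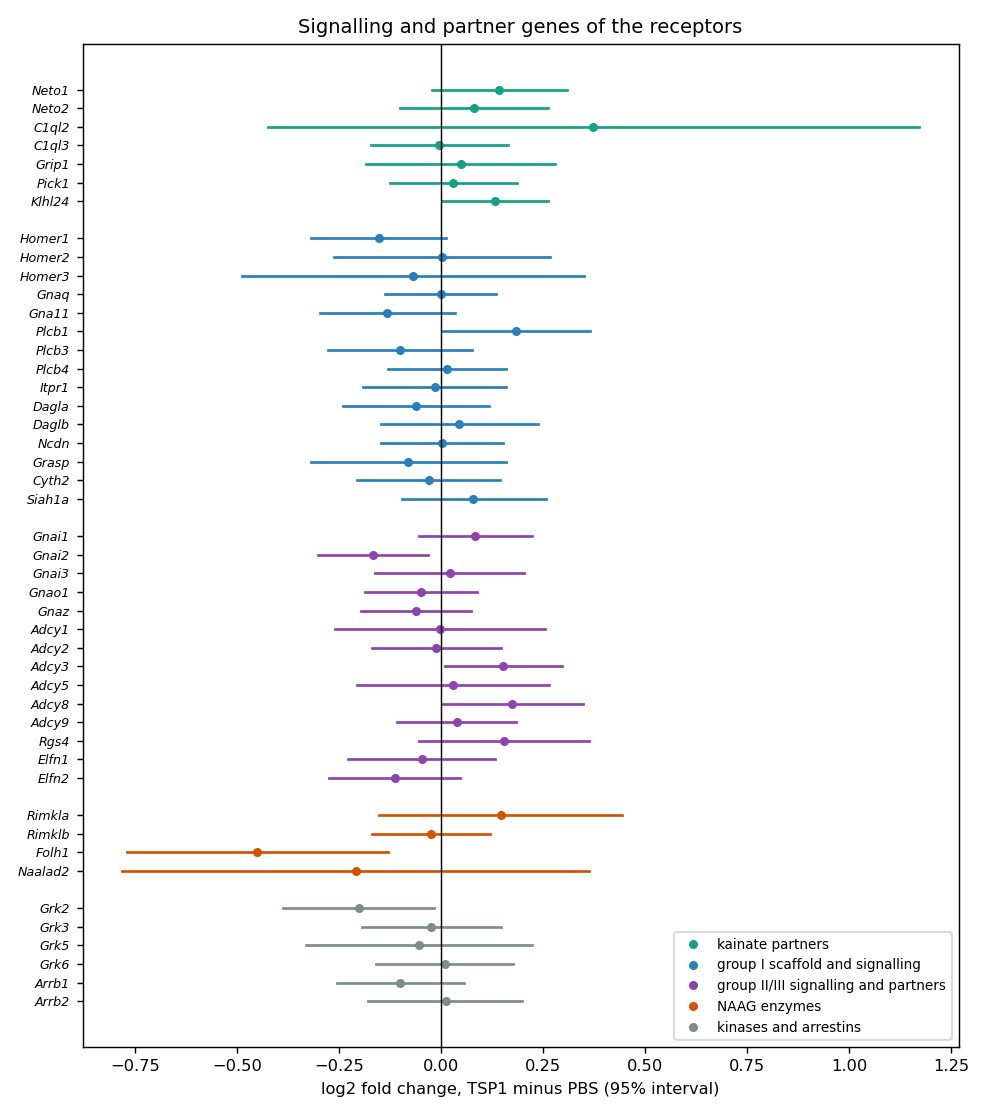
Log2 fold change (TSP1 minus PBS, points) with 95% intervals (lines) of the 46 tested partner and signalling genes, coloured by list. Fitted values fall on both sides of 0, 22 above and 24 below, and Folh1 lies farthest below at -0.45.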

How the data were processed

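The deposited table holds raw read counts per gene, judged from its values (whole numbers with different totals per library), for 7 mPFC libraries, 4 TSP1 and 3 PBS. Per the labels' protocols, libraries were made with a SMARTer kit from 1.3 µg of total RNA. The submitters' processing notes name GRCm38 and mm10. For the aligner, counter and strand setting: not given in the sources used here. Each column carries the library number that opens 1 sample's description and was assigned to it. Gene IDs were matched to GENCODE M21 (GRCm38) without version, 25375 of 25467 with a match.

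edgeR 4.0.16 (R 4.3.3) was run with filterByExpr, TMM and a robust quasi-likelihood fit of group alone over all genes, two-sided, with Benjamini-Hochberg FDR under 0.05. SE was taken from F, as the absolute log2 fold change divided by its square root. Alternatives were RLE size factors, DESeq2 1.42.0, limma-voom 3.58.1, no low-count filter, a filter of 5 CPM in 3 or more libraries, a replicate block, offsets that take out each library's dependence on exon length and GC (splines, 4 degrees of freedom each) and leaving out each library. DESeq2 gave no adjusted p for 9398 genes. The scripts were tested on simulated counts.

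The receptor genes, the lists and the tests were chosen with earlier results of these data known. The named genes are the 9 receptors, further receptors of both families, and in each partner list the 2 of smallest p and the most abundant. Klhl17 and Grm6 were not analysed here, and 1 item that the rule names is not reported here. Replicates of a group differed by more than sampling noise (chi-square 3.98 to 13.4 per degree of freedom). The series describes different mice, so p-values measure the spread between animals. The numbers that open the sample descriptions are 1 to 4 with TSP1 and 8, 11 and 12 with PBS, and what they record is not stated.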

Additional observations from a re-analysis of the deposited data

Results flagged for a closer look

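In 2 of the 35 sets of 4 TSP1 values examined, 1 library lay far from the other 3 by Dixon's criterion (the gap set against the whole range), and chance gives about 1 in 20. Grm4 was 36.0 CPM in TSP1 replicate 4, with the next library at 26.9 CPM. The summed striatal projection neuron markers were 619.5 CPM in the same library, with the next at 263.6 CPM. None of the 9 receptor genes showed such a gap.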

How the results depend on the processing

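With 14 alternatives for each gene, no receptor gene passed an adjusted p of 0.05 (lowest 0.213, Grm5 in DESeq2), and the 9 kept their direction except Grik3, at -0.001 with the replicate block. Same-numbered libraries did not deviate together (r = -0.261, -0.033 and 0.01). These deviations were taken from means of only 3 or 4 libraries and cannot settle whether the numbers pair the mice. With the block, 4 of 9 genes and 7.94% of all genes were at an unadjusted p under 0.05 in edgeR, and 0 genes passed the FDR. No PBS library carries replicate number 4, so in that fit TSP1 replicate 4 adds nothing to the group difference. Leaving out single libraries gave 2 to 5 of the 9 at an unadjusted p under 0.05 (limma-voom gave 5) and 0 to 9 of all genes past the FDR, 9 without PBS replicate 3. DESeq2 called 87 genes and the fit with no low-count filter 19. Among genes close to 0, Grik1 turned to 0.026 without TSP1 replicate 2, Ncdn to 0.000 in limma-voom, -0.010 with the replicate block and to -0.032, -0.004 and -0.001 when TSP1 replicate 2, TSP1 replicate 4 and PBS replicate 3 were left out, Adcy1 to 0.004 in limma-voom, 0.003 with the 5 CPM filter, 0.067 with the replicate block, and 0.009, 0.060, 0.091 and 0.054 without TSP1 replicate 3, TSP1 replicate 4, PBS replicate 2 and PBS replicate 3, and Rimklb to 0.001 and 0.008 without PBS replicate 1 and PBS replicate 2. With single libraries left out, these ran from -0.145 to 0.026 (Grik1), -0.032 to 0.036 (Ncdn), -0.136 to 0.091 (Adcy1) and -0.074 to 0.008 (Rimklb). The cause was not tested. With 7 libraries and a common biological coefficient of variation of 9.8%, the intervals of the receptor genes reach from 0.13 to 0.35 log2 units to each side.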
